A study of Mus musculus with 23 samples.

Results

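Cholesterol synthesis and transport in cortical astrocytes were followed through 33 genes, taken by gene symbol for their roles in the pathway from the 24411 symbols of the count table. They comprised 18 enzymes of sterol synthesis, 6 genes of the control by sterol regulatory element-binding proteins (SREBPs) and 9 genes of sterol transport, storage and export. All 33 were in the table and passed the filter on low counts in every comparison.

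Cholesterol of the brain is made within it, because lipoproteins of the blood do not cross the blood-brain barrier, and astrocytes are a main producer in the adult. Synthesis starts from acetyl-CoA, passes through mevalonate, farnesyl diphosphate, squalene and lanosterol, and ends in a series of reductions and demethylations of the sterol rings. SREBPs switch the enzymes on when sterols in the endoplasmic reticulum run low: Scap carries them to the Golgi to be cut, and Insig proteins hold Scap back when sterols are plentiful. Liver X receptors act on the other side of the balance. They switch on Abca1 and Abcg1, the pumps that load cholesterol onto particles of apolipoprotein E, which carry it from astrocytes to neurons.

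The study deleted Aldh7a1, which encodes an aldehyde dehydrogenase, from astrocytes and asked how the resulting redox imbalance, and feeding sulforaphane (SFN), which activates the antioxidant factor NRF2, altered their transcripts. By their labels, all 23 libraries came from male mice at postnatal day 70, and the mice carried Aldh7a1-Flox on both alleles and had received 4-hydroxytamoxifen on postnatal days 3 and 4, controls included. cKOAstro mice (7 libraries) also carried 1 copy of Slc1a3-CreER, a tamoxifen-dependent Cre driven by an astrocyte gene, whereas ConAstro mice (4 libraries) were littermates without Cre. SFN-fed cKOAstro (7 libraries) and SFN-fed ConAstro (5 libraries) received the SFN diet from postnatal day 21. Astrocytes were bound from dissociated cortex by magnetic beads against ACSA-2, an astrocyte surface antigen, and their polyadenylated RNA was sequenced.

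Total counts per library lay between 46890715 and 391701247, and no member had fewer than 511 counts in any library. Aldh7a1 lay between 207 and 219.9 CPM (counts per 1000000 of the library's TMM-scaled total) in ConAstro and between 45.9 and 77.2 CPM in cKOAstro. A pair of libraries went against their labels: SFN-fed ConAstro replicate 1 held 55.7 CPM, where the other 4 of its group held 177 to 226 CPM, and SFN-fed cKOAstro replicate 2 held 222 CPM, where the other 6 held 43.1 to 56.5 CPM. Both were kept under their labels, and each comparison that holds one is also given without it. The library of cKOAstro replicate 2 is labelled male but held Xist at 1541 CPM and Ddx3y, of the Y chromosome, at 0.0077 CPM, whereas Ddx3y was at 83.6 CPM or more in every other library. Summed markers of oligodendrocytes stood at 20779 to 53604 CPM over the libraries, with SFN-fed cKOAstro replicate 4 highest, and summed astrocyte markers at 11908 to 22301 CPM; these sums are not scaled for length. All 8 astrocyte markers were above 0 in every library. In such bulk samples, fewer cells of a type and less RNA per cell cannot be told apart. By name, 17 libraries were numbered and 6 began with Astro. ConAstro had numbered libraries alone, and what the names stand for is not given in the sources used here. Of the libraries against their labels, SFN-fed ConAstro replicate 1 was Astro-named and SFN-fed cKOAstro replicate 2 numbered. Fits on numbered libraries alone therefore kept the latter.

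Levels of different members were compared per kilobase of exon. Apoe stood far above the other members at 6398 ± 969 CPM per kb (SD, n = 23). Next in level came Msmo1, the methylsterol monooxygenase, at 205 ± 25.1 CPM per kb, and then Hmgcs1, which makes HMG-CoA for the mevalonate pathway, at 138 ± 21.1 CPM per kb. Srebf1, which encodes the SREBP best known for fatty acid genes, followed at 135 ± 13.2 CPM per kb, within the spread of Hmgcs1. Npc1 and Insig1 lay at 100.2 ± 12.8 and 97.3 ± 16.9 CPM per kb and did not differ beyond their spread. Srebf2, the SREBP of the sterol genes, lay at 85.4 ± 8.44 CPM per kb. At the low end were Stard4, a sterol transfer protein, at 3.29 ± 0.672 CPM per kb, Nr1h3, the alpha form of the liver X receptor, at 5.49 ± 0.772 CPM per kb, and Idi1, the isopentenyl diphosphate isomerase, at 7.91 ± 1.15 CPM per kb. Nr1h2, the beta form of the receptor, lay at 44.6 ± 3.22 CPM per kb, above Nr1h3 in every library. Exon lengths were those of all basic transcripts of a gene merged, so genes with long alternative ends are understated on this scale. Exons of Fdft1, Lss, Cyp51 and Srebf1 overlap a gene on the opposite strand and those of Tm7sf2 one on the same strand, and counting by strand is not stated, so reads of these neighbours cannot be told apart.

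**Figure D1:**
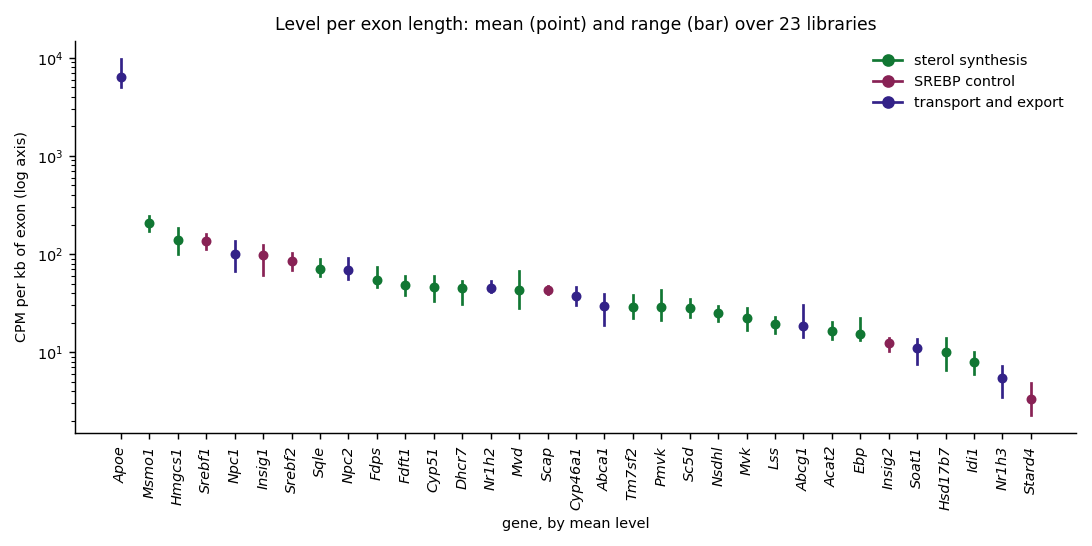
Level of the 33 genes in CPM per kilobase of merged exon (log axis), ordered by mean. Points are means and bars the range over 23 libraries, coloured by role. Apoe stands alone at 6398 CPM per kb and Stard4 is lowest at 3.29 CPM per kb.

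Spread within the groups was small for most members. The pooled within-group SD on the log2 CPM scale ran from 0.08 for Scap, the escort of the SREBPs, to 0.29 for Hsd17b7, a ketoreductase of the ring demethylation steps. Mvd, the mevalonate diphosphate decarboxylase, at 0.29, and Stard4 and Insig1, at 0.27 and 0.26, were the next most variable. Nr1h2, with 0.08, was nearly as even as Scap. Between its lowest and its highest library, Mvd differed 2.39-fold and Scap 1.21-fold.

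The loss of Aldh7a1 on the control diet came with no called change in any of the 33 genes. Of all 17406 genes tested by edgeR's quasi-likelihood test, 0.023% passed an adjusted p of 0.05 (Benjamini-Hochberg over all genes) and 3.74% had an unadjusted p under 0.05. Among the members, 0 passed after adjustment and 1, Cyp51, had an unadjusted p under 0.05; DESeq2 and limma-voom with sample quality weights also called 0. Of the enzymes, 16 of 18 had lower and 2 higher fitted values in cKOAstro, with a median log2 change of -0.08 beside -0.01 over all genes, of which 47.6% were higher. Of the SREBP control genes 5 of 6 were lower, and of the transport genes 6 of 9. Without the library with Xist 15 enzymes were lower, with numbered libraries alone 14, and on removal of any 1 library 13 to 18, with 13 and 5 higher both without ConAstro replicate 1 and without cKOAstro replicate 1.

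Other cell markers also differed between these groups by label. All 5 endothelial markers were lower in cKOAstro (median -0.39), 2 of them with an unadjusted p under 0.05 by edgeR. All 8 microglia markers were lower (median -0.24), with none under that p. All 7 neuron markers (median 0.35) and all 3 ependymal markers (median 0.36) were higher, again with none under it. Of 4 mural markers 3 were higher (median 0.20), 1 under that p. All 5 genes listed as markers of dissociation were lower (median -0.14), 1 under that p. None was called by edgeR, and their part in the enzyme values was not tested.

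Cyp51 (chr5:4081145-4104746, minus strand, mm10) encodes lanosterol demethylase, the first enzyme to act on the ring system of lanosterol. Its values in ConAstro were 210.2, 213, 192 and 196 CPM, whereas cKOAstro ran from 130.2 through a median of 166 to 199.7 CPM. All ConAstro libraries but replicates 3 and 4 lay above all of cKOAstro. The fitted log2 change was -0.27 ± 0.11 (SE), with a 95% interval of -0.51 to -0.03 and an adjusted p of 0.981 by edgeR. The 2 lowest cKOAstro values, 130.2 and 140.5 CPM, were the 2 Astro-named libraries of that group, and with numbered libraries alone the change was -0.15 ± 0.07 with an unadjusted p of 0.0651. Its exons overlap those of Akap9.

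Hmgcs1 held 540.2, 519, 451 and 537 CPM in ConAstro and 389 to 566 CPM, with a median of 427 CPM, in cKOAstro. Only cKOAstro replicate 6 exceeded the highest ConAstro library. The log2 change was -0.18 ± 0.10 (95% interval -0.40 to 0.04). Of the later enzymes, Sc5d, the desaturase before the last step of the pathway, changed by -0.14 ± 0.08, and Dhcr7, the final reductase, by -0.13 ± 0.08. Idi1 changed by -0.16 ± 0.10. The adjusted p of these 4 genes by edgeR was 0.981. With numbered libraries alone they changed by -0.09 ± 0.10 (Hmgcs1), -0.08 ± 0.08 (Sc5d), -0.09 ± 0.08 (Dhcr7) and -0.08 ± 0.09 (Idi1). Squalene epoxidase, Sqle, a slow step of the pathway, held 218, 199, 179.6 and 202 CPM in ConAstro and 172 to 221 CPM with a median of 182 CPM in cKOAstro, and the groups overlapped.

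**Figure D2:**
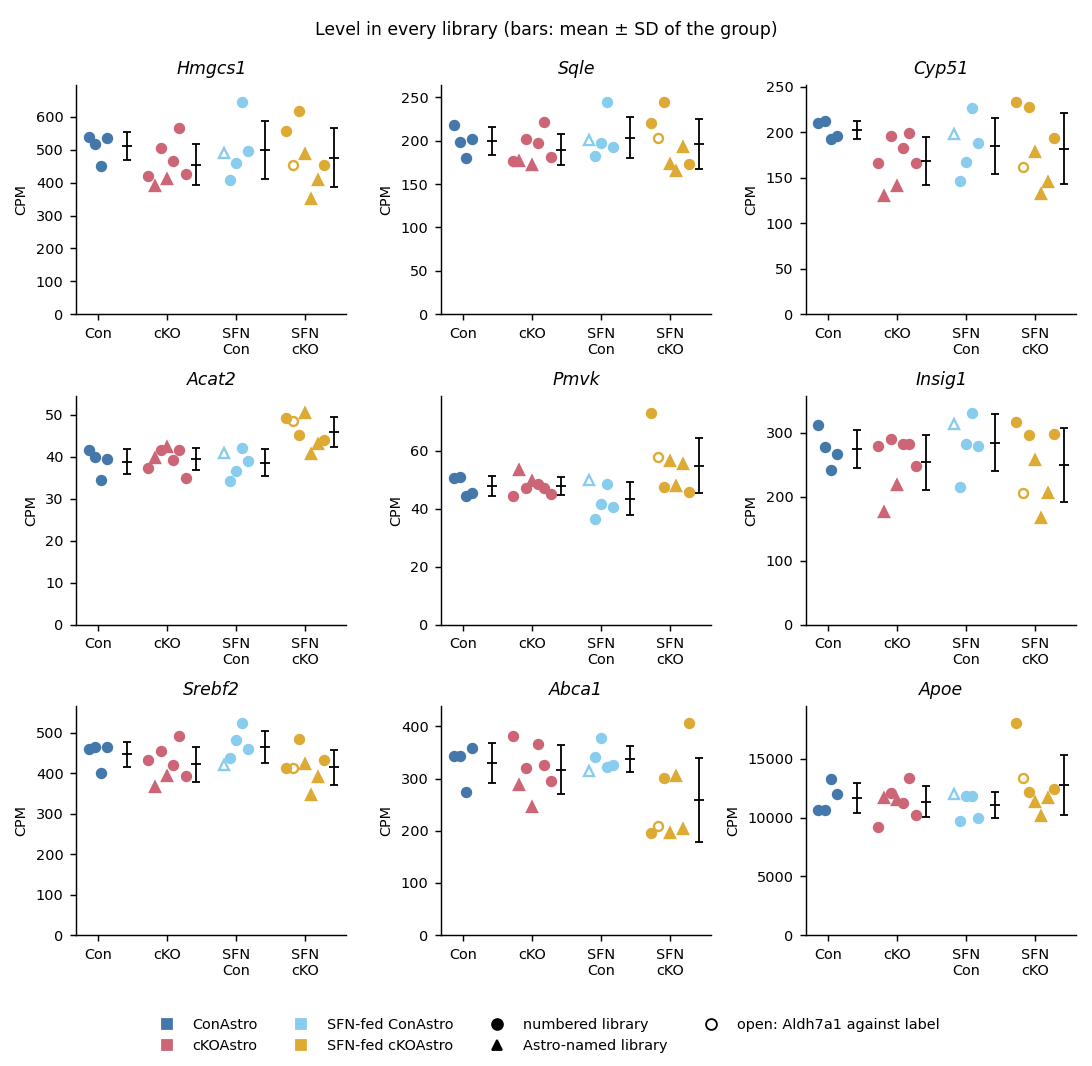
CPM of 9 members in each library by group, from 0 upwards. Circles are numbered and triangles Astro-named libraries, open symbols are the 2 libraries whose Aldh7a1 level went against their label, and bars are the group mean ± SD; the groups overlap in every panel, and the Acat2 values of SFN-fed cKOAstro, 40.7 to 50.5 CPM, lie mostly above the rest.

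Among SFN-fed mice, no member was called between the genotypes by edgeR. Of 16672 genes tested by edgeR, 0% passed the adjusted threshold and 20.3% had an unadjusted p under 0.05. Of the 33 genes 2, Acat2 and Pmvk, had an unadjusted p under 0.05. DESeq2 called 0 of the members, beside 2.2% of all genes. Limma-voom with sample quality weights called 5, beside 26.4% of all genes. The enzymes split evenly, with 9 higher and 9 lower in SFN-fed cKOAstro and a median log2 change of 0.02 beside 0.01 over all genes. With numbered libraries alone, and likewise without SFN-fed ConAstro replicate 4, 14 were higher and 4 lower. The numbered libraries still held SFN-fed cKOAstro replicate 2, which went against its label. Without the libraries against their labels 10 were higher and 8 lower.

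Acat2 (chr17:12942890-12960747, minus strand) encodes the cytosolic thiolase that joins acetyl-CoA units at the start of the pathway. SFN-fed ConAstro held 41.0, 34.3, 36.5, 42.1 and 39.1 CPM, and SFN-fed cKOAstro held 40.7 to 50.5 CPM with a median of 45.3 CPM. The lowest SFN-fed cKOAstro library lay below 2 SFN-fed ConAstro libraries, and the other 6 lay above all 5. The log2 change was 0.25 ± 0.08, with a 95% interval of 0.08 to 0.42, an unadjusted p of 0.007 and an adjusted p of 0.195 by edgeR. Without the libraries against their labels it was 0.26 ± 0.09 with an adjusted p of 0.31. The same library of SFN-fed cKOAstro that stood high in oligodendrocyte markers, replicate 4, had the highest Acat2 value.

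Pmvk, the phosphomevalonate kinase, held 49.9, 36.4, 41.4, 48.5 and 40.6 CPM in SFN-fed ConAstro and 45.9 to 73.1 CPM, with a median of 55.5 CPM, in SFN-fed cKOAstro. The groups overlapped through SFN-fed ConAstro replicates 1 and 4. The log2 change was 0.34 ± 0.12 (95% interval 0.07 to 0.60, adjusted p = 0.195 by edgeR), and 0.38 ± 0.14 without the libraries against their labels. The highest value, 73.1 CPM, was that of replicate 1, which was also highest in Fdps at 107.7 CPM and in Apoe at 18050 CPM. Fdps makes farnesyl diphosphate, the branch point to sterols, ubiquinone and prenylated proteins. It held 78.5, 67.6, 66.9, 85.8 and 80.3 CPM in SFN-fed ConAstro and 74.2 to 107.7 CPM, with a median of 88.3 CPM, in SFN-fed cKOAstro, a log2 change of 0.20 ± 0.10.

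Abca1 (chr4:53030787-53159895, minus strand), the pump that gives cholesterol to apolipoprotein E, had lower values in SFN-fed cKOAstro. SFN-fed ConAstro held 315, 342, 378, 323 and 327 CPM, whereas SFN-fed cKOAstro ran from 195 to 406 CPM with a median of 209 CPM. Replicates 1, 2, 4 and 6 lay together at 195, 209, 196 and 203 CPM, below every other library of the study, and replicates 3, 5 and 7 lay at 300.5, 305 and 406 CPM. The log2 change was -0.38 ± 0.18 (95% interval -0.77 to 0.01, adjusted p = 0.257 by edgeR). Without the libraries against their labels, which drop replicate 2, it was -0.35 ± 0.21. Nr1h2 held 82.6 to 89.9 CPM in SFN-fed ConAstro and 84.3 to 105 CPM in SFN-fed cKOAstro, a log2 change of 0.14 ± 0.07. Summed oligodendrocyte markers were 20779 to 29493 CPM in SFN-fed ConAstro and 23381 to 53604 CPM in SFN-fed cKOAstro, with 7 of 8 markers higher and none called. Summed microglia markers were 827 to 2584 CPM and 280.4 to 3015 CPM, with 8 of 8 lower and none called. All 5 endothelial markers were lower too (median -0.68, 3 with an unadjusted p under 0.05), as were all 4 mural markers (median -0.46, 2 under that p), none called. Their part in these results was not tested.

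With the SFN diet in ConAstro mice, the fitted log2 changes of the members stayed between -0.15 and 0.11. Of 16509 genes tested by edgeR 0% passed, 6.54% had an unadjusted p under 0.05, and no member met either threshold; DESeq2 and limma-voom with sample quality weights called 0 members. Of the enzymes, 16 of 18 were lower and 2 higher in SFN-fed ConAstro, with a median of -0.04 beside -0.01 over all genes. Without ConAstro replicate 1, and likewise without SFN-fed ConAstro replicate 2, 10 were lower and 8 higher. Pmvk had the lowest p, with 50.6, 50.9, 44.3 and 45.2 CPM in ConAstro and a log2 change of -0.15 ± 0.09. Without SFN-fed ConAstro replicate 1, the library against its label, that change was -0.20 ± 0.09. Npc1, the membrane protein that lets cholesterol out of lysosomes, changed by 0.11 ± 0.07, Tm7sf2, a sterol reductase, by -0.12 ± 0.08, Cyp51 by -0.14 ± 0.11 and Idi1 by -0.12 ± 0.09. The lowest lower bound of a 95% interval among the 33 genes was -0.48, for Mvd, and the highest upper bound was 0.36, for Stard4. All 5 endothelial (median 0.57), 4 mural (0.32), 4 oligodendrocyte precursor (0.26), 8 microglia (0.19) and 7 neuron markers (0.32) were higher on the diet. All 3 ependymal markers were lower (median -0.41). Of these lists, 1 endothelial and 1 mural marker had an unadjusted p under 0.05 by edgeR, and none was called. Their part in the enzyme values was not tested.

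The SFN diet in cKOAstro mice was the comparison with the lowest unadjusted p among the members. Of 16903 genes tested by edgeR 0% passed and 10.9% had an unadjusted p under 0.05; among the members 0 passed and 2, Acat2 and Fdps, had an unadjusted p under 0.05. DESeq2 and limma-voom with sample quality weights called 0 members. Of the enzymes 14 of 18 were higher and 4 lower on the diet, with a median of 0.07 beside 0.01 over all genes, and of the transport genes 6 of 9 were higher. Without SFN-fed cKOAstro replicate 2, the library against its label, 14 enzymes were again higher, Acat2 changed by 0.20 ± 0.07, Fdps by 0.20 ± 0.09, Pmvk by 0.18 ± 0.10, Npc2 by 0.20 ± 0.10 and Abcg1 by 0.28 ± 0.16. Acat2 held 35.0 to 42.3 CPM with a median of 39.7 CPM in cKOAstro, against the 40.7 to 50.5 CPM of SFN-fed cKOAstro. Its log2 change was 0.22 ± 0.06, with a 95% interval of 0.08 to 0.35, an unadjusted p of 0.0036 and an adjusted p of 0.459 by edgeR. Only the lowest SFN-fed library lay within the cKOAstro range. Fdps held 69.6 to 84.4 CPM with a median of 73.9 CPM in cKOAstro and changed by 0.21 ± 0.08. Pmvk held 44.2 to 53.4 CPM in cKOAstro and changed by 0.20 ± 0.09. Npc2, the soluble partner of Npc1, changed by 0.20 ± 0.10.

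Abcg1, the second efflux pump, changed by 0.29 ± 0.15 between the same groups, with 101.9 to 136 CPM in cKOAstro and 97.7 to 208 CPM in SFN-fed cKOAstro. The 208 CPM were those of replicate 4, the library highest in oligodendrocyte markers, and with numbered libraries alone the change was 0.08 ± 0.14. All 8 oligodendrocyte markers had higher fitted values in SFN-fed cKOAstro than in cKOAstro, none called. All 5 endothelial markers were higher too (median 0.32). All 3 ependymal (median -0.44) and all 4 mural markers (median -0.39) were lower, with 2 of each list at an unadjusted p under 0.05 by edgeR and none called. Markers of the other cell types went both ways. Their part in the values of the enzymes was not tested. Across the 23 libraries, Abcg1 and the summed oligodendrocyte markers had r = 0.889 and Ebp, the sterol isomerase, r = 0.858 with the same sum; these are descriptions, since the points share each library's depth and composition. Acat2 had r = 0.604 and Abca1 r = -0.606 with it. Soat1, which esterifies cholesterol for storage, had r = 0.857 with the summed astrocyte markers.

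SFN-fed cKOAstro set directly against ConAstro gave 0% of 16753 genes past the adjusted threshold and 8.67% with an unadjusted p under 0.05. Of the members 0 passed, and Acat2 had an unadjusted p under 0.05. DESeq2 called 0 of the members, beside 0.0478% of all genes. Limma-voom with sample quality weights also called 0, beside 3.92% of all genes. It gave 12 members an unadjusted p under 0.05, beside 31.5% of all genes, and its lowest adjusted p of a member was 0.0508. Enzymes were 8 higher and 10 lower, with a median of -0.02, and 12 higher and 6 lower with numbered libraries alone. Acat2 held 41.6, 39.9, 34.6 and 39.4 CPM in ConAstro, which gave a log2 change of 0.22 ± 0.08 and an adjusted p of 0.557 by edgeR. Soat1 changed by -0.29 ± 0.14, Hsd17b7 by -0.35 ± 0.18, Nr1h2 by 0.13 ± 0.07 and Idi1 by -0.24 ± 0.14. ConAstro has no Astro-named library, and with the name series as a covariate these changes were -0.15 ± 0.14, -0.18 ± 0.18, 0.08 ± 0.08 and -0.07 ± 0.11. Without SFN-fed cKOAstro replicate 2, 9 enzymes were higher and 9 lower, and Acat2 changed by 0.22 ± 0.08, Soat1 by -0.30 ± 0.15, Hsd17b7 by -0.28 ± 0.18, Nr1h2 by 0.15 ± 0.08 and Idi1 by -0.22 ± 0.14. These comparisons share samples, ConAstro or SFN-fed cKOAstro, and their values are not independent of each other.

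**Figure D3:**
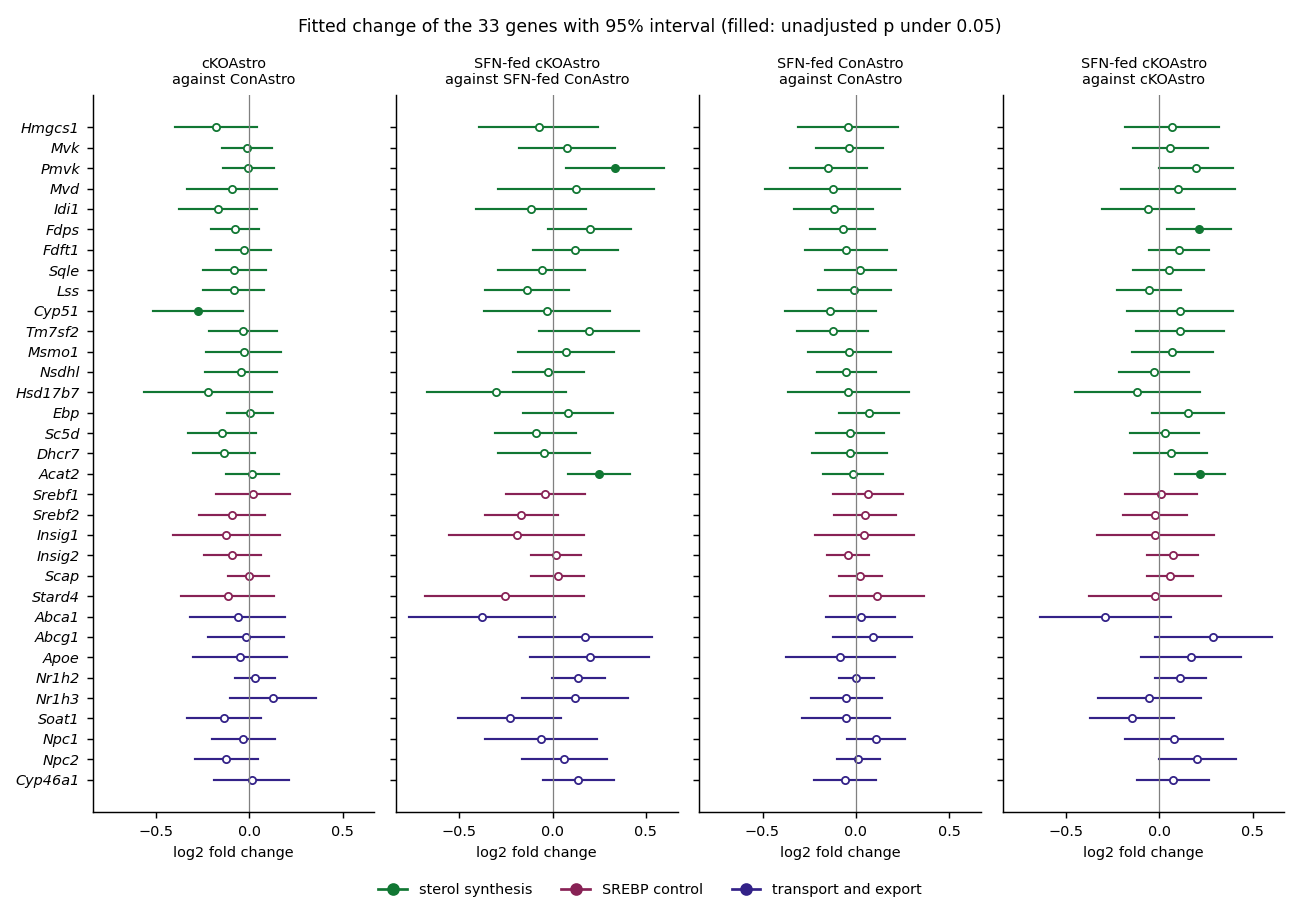
Fitted log2 fold change (point) and 95% interval (bar) of the 33 genes in 4 comparisons by edgeR, coloured by role, filled where the unadjusted p is under 0.05. Filled points are Cyp51 in the control diet comparison of genotypes, Acat2 and Pmvk among SFN-fed mice, and Acat2 and Fdps for the diet in cKOAstro; none passed after adjustment over all genes.

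The interaction, that is, the change with genotype on the SFN diet minus that on the control diet, was fitted over all 4 groups. Of 17302 genes 0% passed by edgeR and 7.32% had an unadjusted p under 0.05; among the members 0 passed, 3 had an unadjusted p under 0.05, and DESeq2 and limma-voom with sample quality weights called 0. Those 3 were Pmvk (log2 difference 0.34 ± 0.14, 95% interval 0.04 to 0.63), Acat2 (0.23 ± 0.10) and Fdps (0.27 ± 0.12), each with an adjusted p of 0.674 by edgeR. Tm7sf2 had 0.23 ± 0.16 and Abca1 -0.32 ± 0.23. Of the enzymes 16 of 18 had a positive and 2 a negative difference, with a median of 0.09 beside 0.00 over all genes. Without the libraries against their labels, Pmvk had 0.38 ± 0.15, Acat2 0.24 ± 0.10 and Fdps 0.28 ± 0.13, and 15 enzymes were positive.

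The enzymes of the pathway varied together from library to library. For each enzyme, the log2 level over the 23 libraries was correlated with the mean of the other 17 enzymes. The median r was 0.755, and 15 of 18 had r over 0.5, as did 5.4% of the 17284 other genes tested, whose median r was 0.003. Hmgcs1 (r = 0.933), Sqle (0.891), Mvk, the mevalonate kinase (0.871), and Fdft1, the squalene synthase (0.862), followed the others most closely. The 3 enzymes under 0.5 were Ebp (-0.04), Pmvk (0.36) and Acat2 (0.49). With group means subtracted the median r was 0.823 and 16 of 18 were over 0.5, all but Ebp (-0.07) and Pmvk (0.445), with Acat2 at 0.696. Of the SREBP control genes, Insig2 (0.757), Insig1 (0.727) and Srebf2 (0.686) were high, and Srebf1 (0.154) and Scap (0.350) were low. The transport genes had a median r of 0.045, from -0.32 for Abcg1 to 0.616 for Npc2. With group means subtracted their median r was 0.09, and 4 of 9 were over 0.5. These were Npc2 (0.623), Soat1 (0.526), Apoe (0.52) and Cyp46a1 (0.515). Some enzymes also moved with cell type markers. With the summed astrocyte markers r was 0.764 for Nsdhl, 0.730 for Idi1, 0.685 for Sc5d and 0.541 for Hmgcs1, and with the summed ependymal markers it was -0.71 for Dhcr7 and -0.67 for Hmgcs1; the part of these cells was not tested. These values describe the libraries and carry no test, since all genes of a library share its depth and composition.

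Summed over the 18 enzymes, the level per library ran from 1888 to 2838 CPM. The highest libraries came from different groups: SFN-fed ConAstro replicate 4 (2838 CPM), SFN-fed cKOAstro replicates 3 and 1 (2806 and 2731 CPM) and ConAstro replicate 1 (2608 CPM). So did the lowest, SFN-fed cKOAstro replicate 5 (1888 CPM) and SFN-fed ConAstro replicate 2 (1995 CPM). In SFN-fed ConAstro replicate 4 and ConAstro replicate 1, 17 of 18 enzymes lay above their mean over all libraries, and in SFN-fed cKOAstro replicate 5 and SFN-fed ConAstro replicate 2, 17 of 18 lay below. Group means were 2408 ± 196 CPM in ConAstro (SD, n = 4), 2246 ± 189 CPM in cKOAstro (n = 7), 2340 ± 308 CPM in SFN-fed ConAstro (n = 5) and 2356 ± 321 CPM in SFN-fed cKOAstro (n = 7), and differed by less than their SDs.

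**Figure D4:**
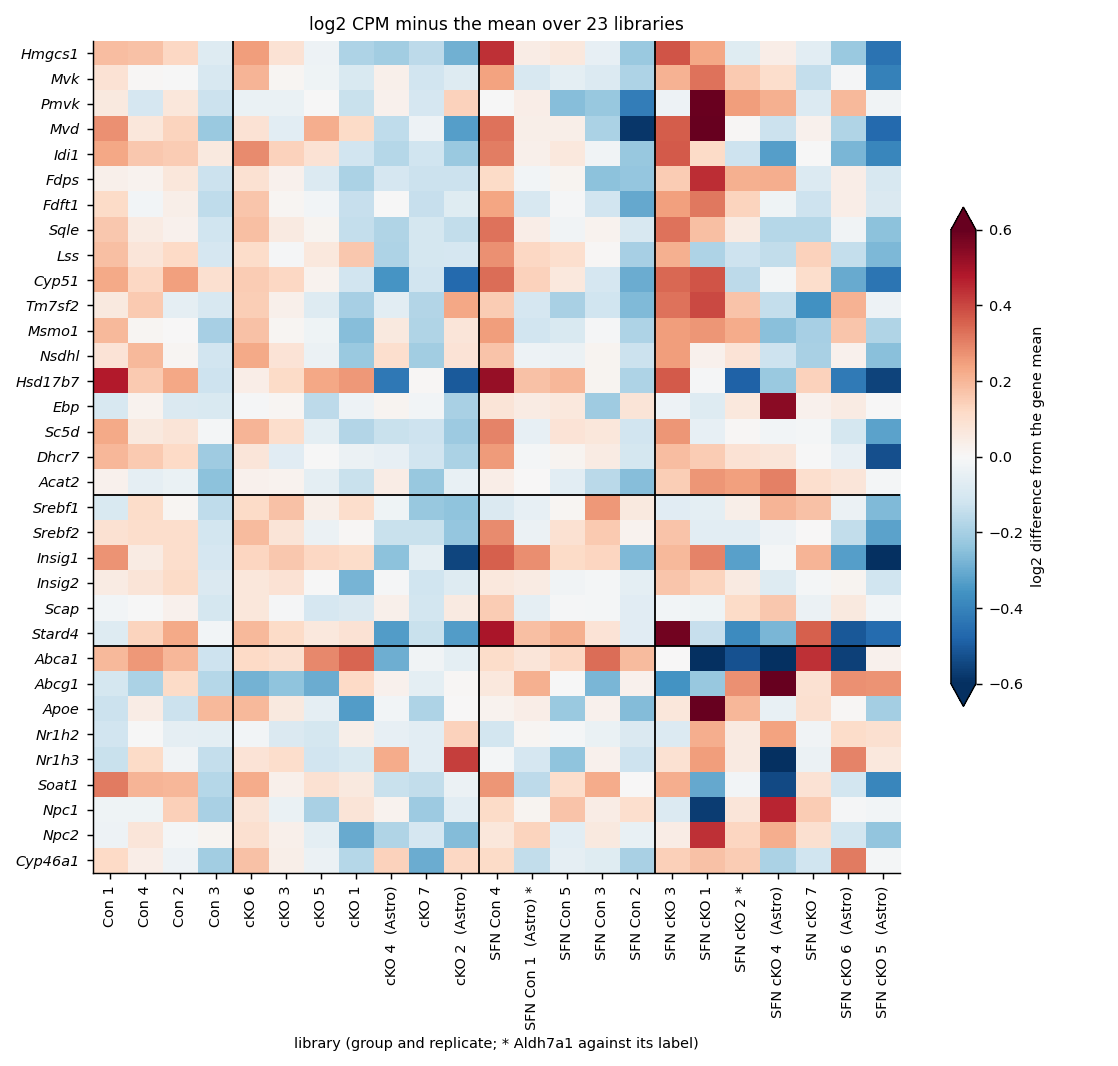
Difference of log2 CPM from the gene's mean over 23 libraries, with genes in rows by role and libraries in columns by group, ordered within a group by the mean of the enzymes. Red is above and blue below the mean, colours end at 0.6 in either direction; enzyme rows change colour together from column to column within every group, whereas the transport rows do not.

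Pairs of genes with a known tie were examined across libraries by permutation tests (4 pairs, adjusted over the 4). Both genes of a pair share each library's depth and composition, which the permutation breaks, and no other pairs were examined. A low p therefore does not test the tie itself. Hmgcs1 and Sqle, both SREBP targets, had r = 0.882 and Spearman's rho = 0.820, with two-sided permutation p = 1e-05 for each, the smallest that 100000 resamples can give, and adjusted p = 1.33e-05 and 2e-05. Without the pair of libraries farthest from the median of Hmgcs1 r was 0.831, with group means subtracted 0.883, in the 17 numbered libraries 0.917, and in the 6 Astro libraries 0.565 (exact permutation p = 0.212). Hmgcs1 and Insig1, the sterol sensor that is itself an SREBP target, had r = 0.812 and rho = 0.799 (permutation p = 1e-05 for each), and r = 0.732 without the farthest libraries. Within the numbered libraries r was 0.677 (permutation p = 0.00256) and within the Astro libraries 0.950 (exact permutation p = 0.00694). Hmgcs1 and Srebf2 had r = 0.828 and rho = 0.765 (permutation p = 1e-05 and 7e-05), and r = 0.721 without the farthest libraries, 0.698 in the numbered and 0.976 in the Astro libraries.

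Abca1 and Abcg1, both targets of liver X receptors, had r = -0.43 (permutation p = 0.0399) and rho = -0.257 (permutation p = 0.233), with r = -0.049 (permutation p = 0.852) and rho = 0.118 (permutation p = 0.655) in the numbered libraries and r = -0.401 without the farthest libraries (permutation p = 0.0721). The relation does not hold within the numbered libraries.

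**Figure D5:**
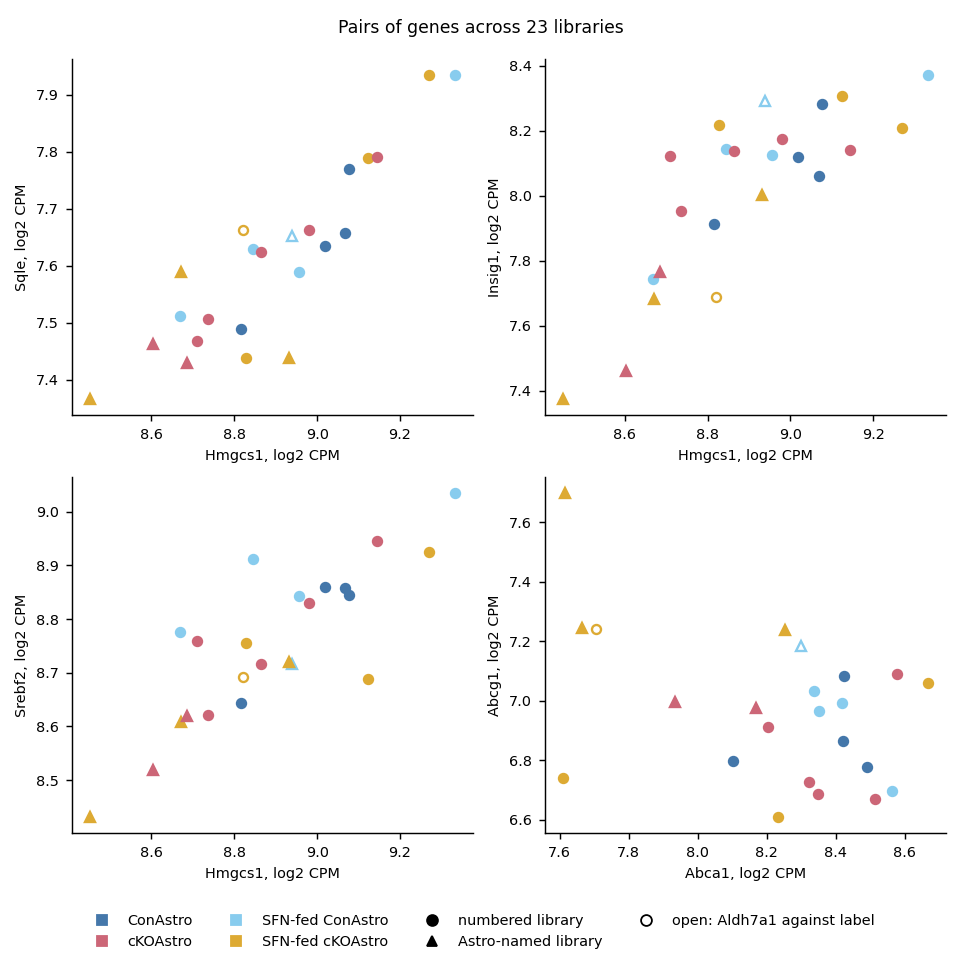
Log2 CPM of 4 gene pairs, 1 point per library (23 in each panel), coloured by group, with triangles for Astro-named libraries and open symbols for those whose Aldh7a1 level went against their label. Hmgcs1 rises with Sqle (r = 0.882), Insig1 (r = 0.812) and Srebf2 (r = 0.828), with all groups spread along the trend, and Abca1 with Abcg1 shows no such line.

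Srebf2 held 460.0, 465, 399.9 and 464 CPM in ConAstro and 367 to 492.7 CPM with a median of 421 CPM in cKOAstro. In SFN-fed ConAstro it held 421, 438, 482, 524 and 459 CPM, and in SFN-fed cKOAstro 345 to 486 CPM with a median of 413 CPM. Insig1 held 311, 278, 241 and 267 CPM in ConAstro, 176 to 289 CPM (median 279 CPM) in cKOAstro, 313, 214.5, 283, 331 and 279 CPM in SFN-fed ConAstro and 166 to 317 CPM (median 256 CPM) in SFN-fed cKOAstro. The groups of both genes overlapped in every comparison. Apoe held 10640, 10640, 13320 and 12020 CPM in ConAstro, 9227 to 13340 CPM (median 11510 CPM) in cKOAstro, 9714 to 11970 CPM in SFN-fed ConAstro and 10130 to 18050 CPM (median 12220 CPM) in SFN-fed cKOAstro. Replicate 1 of the last group, at 18050 CPM, stood apart from its other 6, of which the highest held 13360 CPM.

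The Astro-named libraries differed from the numbered ones in part of the members. In cKOAstro, 20 of 33 members had a lower mean in them, with a median log2 difference of -0.06; both lay above all 5 numbered libraries in 2 members, Pmvk and Nr1h3, and below all 5 in 10: Hmgcs1, Mvd, Idi1, Sqle, Cyp51, Hsd17b7, Srebf2, Insig1, Stard4 and Abca1. In SFN-fed cKOAstro, all 3 lay below all 4 numbered libraries in Mvd, Idi1 and Apoe, and 28 of 33 members had a lower mean, with a median log2 difference of -0.20. The mean log2 CPM of Insig1 in Astro minus that in numbered libraries was -0.49 in cKOAstro and -0.42 in SFN-fed cKOAstro, and that of Hsd17b7 -0.60 and -0.40. Summed microglia markers lay between 280.4 and 501 CPM in 5 of the 6 Astro libraries and in SFN-fed cKOAstro replicate 2 at 318 CPM, and between 827 and 3015 CPM in the other 17. Insig1 had r = 0.700 and Hsd17b7 r = 0.649 with the summed microglia markers over the 23 libraries. The part of microglia or of the library names in these values was not tested. Such counts were not made over all genes, so these differences are not shown to be particular to the members.

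Promoter sequence was read for the members because the enzymes varied together. RefSeq promoters on GRCm38.p6, 250 bases before to 50 after a start site, were matched by symbol for 27 of the 33 members. Fdps, Fdft1, Sqle, Stard4, Abcg1 and Npc1 had no entry. The box bound by NF-Y, a factor known to work beside SREBPs, was searched as ATTGG on both strands. At least 1 promoter held it in 14 of 15 enzymes, in 4 of 5 SREBP control genes and in 3 of 7 transport genes, beside 41.1% of the 27025 genes of the table. Counted by promoter, it stood in 14 of 18 enzyme promoters (77.8%) and in 37.4% of all 32851 promoters of that length. The enzyme without it was Acat2, whose r with the other enzymes was 0.49, or 0.696 with group means subtracted. Ebp (r = -0.04) and Pmvk (r = 0.36), the enzymes with the lowest r, held it. Whether the motif goes with the shared variation was not tested. A sterol regulatory element was searched as TCACNCCAC on both strands, which does not overlap the other motif. It was found in 1 of the 27 matched members, Hmgcs1 (3.7%), beside 1.44% of the 27025 genes. Counted by promoter, it stood in 2.63% of member promoters and in 1.24% of all promoters. In Hmgcs1 its first base lay 137 bases before the start site. A match describes letters and is not a site shown to be bound.

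The 250 bases upstream of the start are printed 5' to 3' on the gene's own strand. They are given for Hmgcs1 (chr13:119690101-119690350, plus strand), Mvk (chr5:114444019-114444268, plus strand) and Msmo1 (chr8:64733579-64733828, minus strand). The r of these 3 enzymes with the mean of the others was 0.933, 0.871 and 0.692. They are also given for Insig1 (chr5:28071162-28071411, plus strand), the sterol sensor, and Acat2 (chr17:12960726-12960975, minus strand), the enzyme with the lowest p in the diet comparison. With group means subtracted, r was 0.698 for Msmo1 and 0.696 for Acat2. Capitals mark ATTGG or its complement CCAAT and, in Hmgcs1, the sterol regulatory element.
Hmgcs1: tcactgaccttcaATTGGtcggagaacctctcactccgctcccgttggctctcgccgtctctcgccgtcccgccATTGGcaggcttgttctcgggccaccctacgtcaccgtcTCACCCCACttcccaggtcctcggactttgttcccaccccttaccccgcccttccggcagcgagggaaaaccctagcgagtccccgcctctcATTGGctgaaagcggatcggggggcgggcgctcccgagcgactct
Mvk: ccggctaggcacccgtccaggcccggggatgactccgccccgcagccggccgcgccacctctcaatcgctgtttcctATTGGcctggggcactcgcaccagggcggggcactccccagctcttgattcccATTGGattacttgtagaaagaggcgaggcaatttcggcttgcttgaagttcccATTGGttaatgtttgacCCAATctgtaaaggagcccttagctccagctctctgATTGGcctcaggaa
Msmo1: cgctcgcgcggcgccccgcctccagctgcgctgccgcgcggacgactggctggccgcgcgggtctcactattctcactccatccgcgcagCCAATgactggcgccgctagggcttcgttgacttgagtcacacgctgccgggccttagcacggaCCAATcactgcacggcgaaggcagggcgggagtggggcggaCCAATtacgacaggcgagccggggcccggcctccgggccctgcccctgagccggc
Insig1: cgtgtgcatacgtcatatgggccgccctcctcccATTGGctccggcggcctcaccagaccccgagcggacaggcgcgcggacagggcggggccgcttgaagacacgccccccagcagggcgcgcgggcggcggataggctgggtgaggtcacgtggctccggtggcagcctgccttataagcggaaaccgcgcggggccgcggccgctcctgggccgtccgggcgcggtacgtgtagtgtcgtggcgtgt
Acat2: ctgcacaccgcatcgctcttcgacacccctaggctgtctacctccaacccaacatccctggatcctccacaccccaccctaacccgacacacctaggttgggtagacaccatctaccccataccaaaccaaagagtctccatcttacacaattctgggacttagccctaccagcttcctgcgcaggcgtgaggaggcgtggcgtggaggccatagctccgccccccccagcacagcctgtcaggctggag

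Upstream of Mvk the motif occurred 5 times, and upstream of Hmgcs1 and Msmo1 3 times each. Insig1 had 1 and Acat2 none. Among enzymes not printed, Mvd (r = 0.852) had 2, Cyp51 (0.823) and Sc5d (0.802) 1 each, and Hsd17b7 (0.552) 3. Whether the number of motifs goes with r was not tested.

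The genes around the pathway, from 5 further lists, gave no gene called by edgeR in any of the 6 comparisons. Of 13 genes of fatty acid synthesis, the other branch under SREBP control, 11 were lower and 2 higher in cKOAstro than in ConAstro (median -0.11). Acly, which supplies cytosolic acetyl-CoA, had the lowest p there, at -0.13 ± 0.06. Of 8 genes of the isoprenoid branches, 7 were higher on the SFN diet in cKOAstro (median 0.04), with Icmt, which methylates prenylated proteins, at 0.18 ± 0.06. Of 12 lipoprotein and receptor genes, 8 were lower with the deletion among SFN-fed mice (median -0.11); Lrp1, an endocytic receptor for apolipoprotein E, was at -0.42 ± 0.13 with an adjusted p of 0.195 by edgeR. Of 5 oxysterol enzymes, Cyp39a1 had the lowest p in cKOAstro against ConAstro, at -0.67 ± 0.38. Of 10 genes of sterol transfer and esters, Stard3, a sterol carrier of late endosomes, was at 0.29 ± 0.09 for the diet in cKOAstro, with an unadjusted p of 0.00476 and an adjusted p of 0.459 by edgeR, and at 0.39 ± 0.12 in the interaction.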

How the data were processed

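Gene counts for 23 libraries of ACSA-2-isolated cortical astrocytes were deposited by the authors as 1 table of raw read counts per gene symbol, made from paired-end NovaSeq reads with STAR on mm10; FastQC is named too, and the STAR version, annotation and strand setting are not given in the sources used here. Groups came from the sample titles. Here, counts were scaled by TMM, filtered with filterByExpr (count minimum 10) and tested per comparison on its 2 groups with edgeR 4.0.16 in R 4.3.3 (quasi-likelihood, Benjamini-Hochberg over all genes tested, threshold 0.05); the interaction used all 4 groups. SEs are the log2 change over the square root of F. CPM used all counts of a library after TMM scaling. Alternatives were DESeq2 1.42.0, limma 3.58.1 (voom with sample quality weights), RLE scaling, no filter on low counts, thinned counts, 1 fit of all groups, a replicate block, the library name series, and libraries left out. The edgeR fit was also run on simulated counts with known changes, for cKOAstro against ConAstro and for the interaction. Its outcome is not given here. In each comparison the genes named were those past the threshold or else the 5 members of lowest p, and from further lists the gene of lowest p; a gene's values per library were given for central members or those named more than once. The members and lists were chosen with earlier results of these data known. By the study's methods each RNA-seq replicate is 1 animal. The closest libraries of a group differed by a chi-square of 44.1 per degree of freedom, so none was a repeat sequencing of another in its group. Libraries of different groups were not compared in this way. Exon lengths came from GENCODE basic transcripts on the same build, and promoters from RefSeq.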

Additional observations from a re-analysis of the deposited data

Results flagged for a closer look

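Of 132 sets of a gene and a group, 10 held a library whose gap to its nearest neighbour took an unusually large share of the group's range by Dixon's criterion, which chance meets in about 1 of 20 sets. SFN-fed cKOAstro replicate 1 was highest in Apoe, at 18050 CPM beside 13360 CPM for the next library. SFN-fed cKOAstro replicate 4, the library with the most oligodendrocyte marker RNA, was highest in Ebp (38.7 CPM, next 27.8 CPM) and lowest in Nr1h3 (7.48 CPM, next 11.4 CPM). SFN-fed cKOAstro replicate 5 was lowest in Dhcr7, at 103 CPM beside 144 CPM. SFN-fed ConAstro replicate 4 was highest in Mvk (52.5 CPM, next 42.7 CPM) and in Scap (200.6 CPM, next 179.6 CPM), and SFN-fed ConAstro replicate 3 was lowest in Ebp, at 22.9 CPM beside 27.5 CPM. In cKOAstro, replicate 6 was highest in Mvk, at 51.2 CPM beside 45.3 CPM. In ConAstro, replicate 4 was highest in Ebp (26.9 CPM, next 25.0 CPM) and replicate 3 lowest in Srebf2 (399.9 CPM, next 460.0 CPM). No member passed the test of the interaction.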

How the results depend on the processing

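Of 705 values of the 30 named changes under alternatives, 702 kept their direction and their side of the threshold and 0 reversed. The exceptions were Acat2 (0.22), Pmvk (0.34) and Abca1 (-0.48) in SFN-fed cKOAstro against SFN-fed ConAstro, which limma-voom with sample quality weights called. It called 5 members there, Pmvk, Hsd17b7, Acat2, Stard4 and Abca1, but also 26.4% of all genes. The cause was not tested. None of the 30 changes was called in the main fits, so those counted as kept had the same sign and stayed uncalled. Their size could still move. Abcg1 for the diet in cKOAstro went from 0.29 to 0.08 with numbered libraries alone. Idi1 in SFN-fed cKOAstro against ConAstro went from -0.24 to -0.07 with the name series as a covariate. The members called were 0 in all other settings, with every library left out in turn included. The median change of the enzymes in the interaction moved to 0.25 with the replicate block, beside 0.09 without it. The block fit kept only libraries whose replicate number occurred in every group, so the libraries used differed too. Of 29 same-numbered pairs of libraries 10 had deviations correlated over 0.1, and the correlations ran from -0.36 to 0.51. Pairs with different numbers were not examined, so these values cannot tell whether a replicate number marks a shared day. No member was called with the block. In the interaction with the block, 8 members had an unadjusted p under 0.05 by edgeR, beside 4.19% of all genes. The main fit had 3, beside 7.32%. There, 16 enzymes were positive and 2 negative, and with the block 17 and 1. Leaving out 1 library at a time, the median of the enzymes ran from -0.12 to -0.03 in cKOAstro against ConAstro, between the SFN-fed genotypes from -0.02, on removal of SFN-fed cKOAstro replicate 4, to 0.08, on removal of SFN-fed ConAstro replicate 4, from -0.11 to 0.00 for the diet in ConAstro, from 0.04 to 0.13 for the diet in cKOAstro, from -0.08 (ConAstro replicate 3 removed) to 0.05 (ConAstro replicate 1 removed) in SFN-fed cKOAstro against ConAstro, and from 0.05 to 0.15 in the interaction. The smallest count of a member in any library was 511.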
